A study of Mus musculus with 12 samples.

Results

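Amino acid transporters were described in mpkCCD cells, an established line from the mouse cortical collecting duct with principal cell origin. The members were taken by gene symbol with no filter on expression, though earlier results of these data were known. They were every gene of the families Slc1, Slc7, Slc36, Slc38 and Slc43 together with Slc3a1 and Slc3a2. This gave 42 genes of the 52015 with a usable value. The study had 12 RNA-seq libraries. Control cells, transduced with a scramble guide RNA that targets no gene, were cultivated for 5 days in isotonic medium of 300 mosmol/kg (Scr_300, 2 libraries) or in hypertonic medium of 600 mosmol/kg (Scr_600, 2 libraries). Cells with a CRISPR/Cas9-mediated deletion of Nfat5 were cultivated in the same 2 media (Nfat5-KO_300 and Nfat5-KO_600, 4 libraries each). The knockout libraries came from 2 clones, N1 and N3, and a difference between clones and controls cannot be told apart from an effect of the gene. Hypertonic medium contained an additional 100 mM NaCl and 100 mM urea.

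Amino acid transporters of the solute carrier (SLC) families move amino acids across the plasma membrane and the lysosomal membrane. System A transporters carry small neutral amino acids together with sodium, and cells in hypertonic medium are known to accumulate such amino acids as compatible osmolytes. The SNAT2 gene Slc38a2 is a known target of hypertonicity. Exchangers built from a glycoprotein heavy chain and an SLC7 light chain then trade the accumulated amino acids for others such as leucine. NFAT5 is the transcription factor that induces many osmoprotective genes, and ATF4 is the factor that induces several amino acid transporters when amino acids are short.

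The deposited values are FPKM, fragment counts scaled to gene length and to library depth, with 1 value per gene and group and none per library. These values give no spread between libraries, standard deviation, p-value or call, and neighbouring values cannot be shown to differ. Every difference below is a description of the 4 group values. Differences are given on the log2 scale as ratios of FPKM + 0.1, a scale that makes differences of low genes look smaller. A gene was compared where either group reached 0.5 FPKM. A difference was counted when it reached 2-fold. The total reads per library are unknown.

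The group labels were checked on Nfat5 and on Akr1b3, the aldose reductase gene that makes sorbitol. Nfat5 mRNA was at 5.61 FPKM in Scr_300, 7.93 in Scr_600, 3.47 in Nfat5-KO_300 and 6.88 in Nfat5-KO_600, so that the mRNA was still present in the knockout groups. Akr1b3 was at 23.8 FPKM in Scr_300, 175 in Scr_600, 14.5 in Nfat5-KO_300 and 39.2 in Nfat5-KO_600. All 5 epithelial markers (Cdh1, Epcam, Krt8, Krt18, Krt19) were expressed, but 4 of 10 principal cell markers reached 0.5 FPKM, and the defining Aqp2 and Avpr2 had at most 0.245 and 0.0193 FPKM. The summed level of the principal cell markers was 10.0 and 8.91 FPKM in the Scr groups and 20.7 and 46.9 FPKM in the Nfat5-KO groups, mainly through Gata3, at 3.41 FPKM in Scr_300 and 30.0 in Nfat5-KO_600. Its part in the results was not tested. Of 7 proximal tubule markers, only Aqp1 and Lrp2 reached 0.5 FPKM, and they differed between the genotypes in opposite directions. Aqp1 was at 23.6 FPKM in Scr_300, 318 in Scr_600, 0.653 in Nfat5-KO_300 and 3.51 in Nfat5-KO_600, whereas Lrp2 was at most 0.0116 FPKM in the Scr groups and at 0.168 and 1.07 FPKM in the Nfat5-KO groups. Their part in the results was not tested. Markers of intercalated cells summed to at most 1.04 FPKM, those of the thick ascending limb to 0.302, of fibroblasts to 0.233 and of endothelium and leukocytes to 2.66, of which Cd68 made up 2.62.

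Of the 42 amino acid transporter genes, 18 reached 0.5 FPKM in a group (42.9%, against 25.8% of all genes), and 7 had at least 10 FPKM. The heavy chain Slc3a2 and the transporters Slc7a5, Slc38a2, Slc7a1 and Slc7a6 together made up 79.4% of the summed FPKM of all members in Scr_300, 82.0% in Scr_600, 77.3% in Nfat5-KO_300 and 75.6% in Nfat5-KO_600. The sum over all members was 278 FPKM in Scr_300, 348 in Scr_600, 270.0 in Nfat5-KO_300 and 261 in Nfat5-KO_600. As reported, it was thus highest in Scr_600, while the other groups lay close together. These sums were not scaled to equal column totals, which ranged from 212247 FPKM in Nfat5-KO_600 to 253756 in Scr_300. The closeness of the other groups depends on that.

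**Figure D1:**
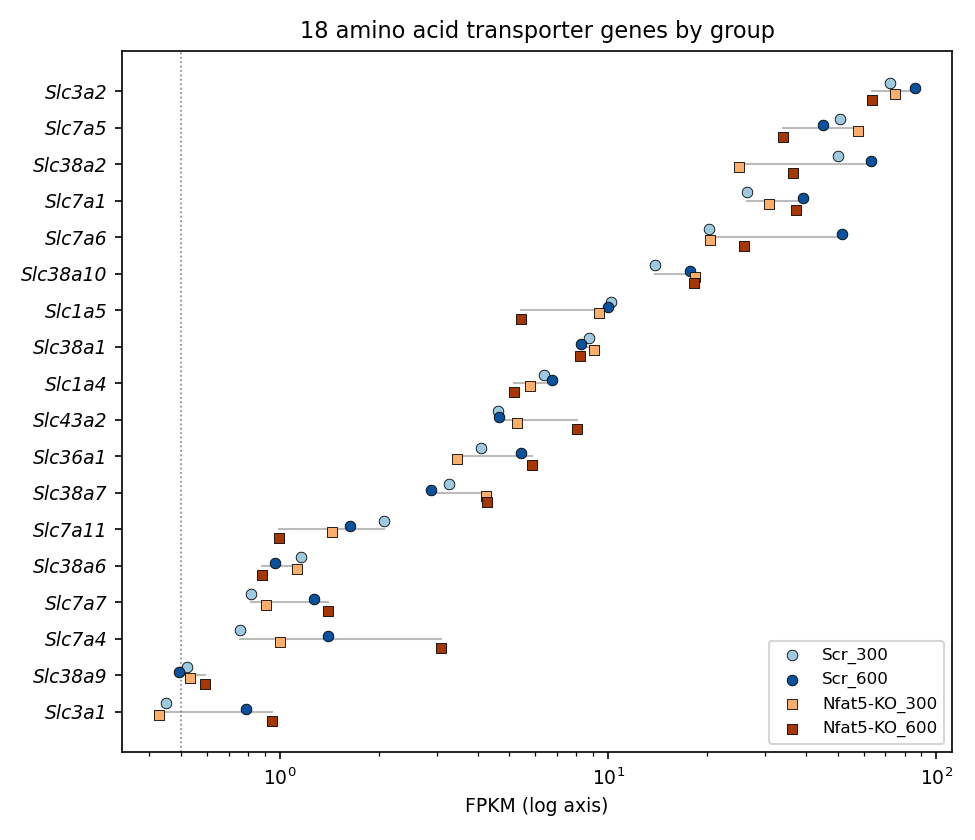
FPKM (log axis) of the 18 amino acid transporter genes that reached 0.5 FPKM, ordered by their level in Scr_300. Each point is the authors' value for 1 group, the grey line spans the 4 groups and the dotted line marks 0.5 FPKM. Slc38a2 is lower in both Nfat5-KO groups than in both Scr groups, and Slc7a6 stands apart in Scr_600 at 51.5 FPKM.

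The other 24 members were under 0.5 FPKM in every group. Slc1a1 (the glutamate transporter EAAT3), Slc1a6, Slc36a3, Slc36a4 and Slc7a13 were listed at 0 in all 4 groups. A further 17 were above 0 but had at most 0.0220 FPKM. They include Slc7a8 and Slc7a9, light chains of the proximal tubule, Slc38a3 and Slc38a5, the system N glutamine transporters, Slc38a4 of system A, Slc7a2 and Slc1a2. The remaining 2 were Slc7a3, a cationic amino acid transporter, with 0.154 FPKM in Scr_300, 0.266 in Scr_600, 0.110 in Nfat5-KO_300 and 0.445 in Nfat5-KO_600, and Slc1a3 (the glutamate transporter GLAST). Slc1a3 was listed at 0 in both isotonic groups, with 0.150 FPKM in Scr_600 and 0.0187 in Nfat5-KO_600. No member of the glutamate transporter group of Slc1 (Slc1a1, Slc1a2, Slc1a3, Slc1a6, Slc1a7) thus reached 0.5 FPKM.

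Promoter sequences from RefSeq (build GRCm38.p6, 250 bases before to 50 after each start) were matched to 31 of the 42 members, with 42 starts in all. Of the 18 expressed members, 14 were matched. Slc7a4, Slc7a5, Slc1a5 and Slc38a1 had no entry. Both strands were searched for TGGAAA, the core of the tonicity element that NFAT5 binds, and for TGATGNAA, the core of the amino acid response element that ATF4 binds. The letters TGGAAA were found in 9 of the 42 member promoters (21.4%) and in 21.4% of all 32851 promoters, so the members held them as often as promoters in general. Among the expressed members they were found for Slc38a6, Slc38a7, Slc43a2 and Slc7a7. The letters TGATGNAA were found in 4 of the 42 (9.52%) and in 3.97% of all promoters, and these belonged to Slc1a4, Slc7a7 and Slc7a11. Some promoters of 1 gene overlap, as 2 of Slc7a7 do. These share a TGATGNAA site, which was thus counted in both promoters. The following are the 250 bases before the start of 4 genes that are followed below: Slc38a2 and Slc7a6, the members with the lowest ratios of Nfat5-KO to Scr, and Slc43a2 and Slc7a11, which hold 2 matches each in the window shown. Only the first of 2 starts is shown for Slc43a2 and for Slc7a6. They lie at chr15:96699729-96699978 (minus strand), chr8:106168604-106168853 (plus strand), chr11:75531444-75531693 (plus strand) and chr3:50443614-50443863 (minus strand). Capitals mark the matches, read on either strand.
Slc38a2: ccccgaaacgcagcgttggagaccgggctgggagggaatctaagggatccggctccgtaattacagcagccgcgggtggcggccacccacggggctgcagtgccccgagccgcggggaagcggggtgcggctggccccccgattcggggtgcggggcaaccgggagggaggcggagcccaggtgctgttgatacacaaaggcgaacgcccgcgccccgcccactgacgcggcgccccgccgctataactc
Slc7a6: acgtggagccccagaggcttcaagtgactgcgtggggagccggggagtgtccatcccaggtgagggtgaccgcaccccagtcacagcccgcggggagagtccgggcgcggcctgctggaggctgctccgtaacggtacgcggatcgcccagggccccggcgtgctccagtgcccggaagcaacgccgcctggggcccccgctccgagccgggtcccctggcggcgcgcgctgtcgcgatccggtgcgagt
Slc43a2: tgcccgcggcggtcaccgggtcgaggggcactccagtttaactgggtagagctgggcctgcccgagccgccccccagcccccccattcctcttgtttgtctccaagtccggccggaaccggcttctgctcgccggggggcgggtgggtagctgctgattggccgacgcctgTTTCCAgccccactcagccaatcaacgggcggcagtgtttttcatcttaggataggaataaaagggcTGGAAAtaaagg
Slc7a11: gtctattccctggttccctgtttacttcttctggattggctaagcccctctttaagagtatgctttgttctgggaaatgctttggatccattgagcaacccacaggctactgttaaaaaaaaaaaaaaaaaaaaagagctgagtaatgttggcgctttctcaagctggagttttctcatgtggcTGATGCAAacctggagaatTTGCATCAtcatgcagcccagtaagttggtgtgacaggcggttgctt
The Slc38a2 sequence (72.0% GC, 30 CpG) and the Slc7a6 sequence (74.0% GC, 30 CpG) hold neither motif. In Slc43a2 the matches begin at base -79 (minus strand) and -12 (plus strand) from this start, and a further match begins at -206 (plus strand) of its second start, which is not printed. In Slc7a11, which has 43.2% GC and 2 CpG, the matches to TGATGNAA begin at -66 (plus strand) and -47 (minus strand). A match is a run of letters and not evidence of binding, and none in this window says nothing of other regions.

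Slc38a2 encodes SNAT2, the main system A transporter of many cells. It was at 50.3 FPKM in Scr_300, 63.4 in Scr_600, 25.1 in Nfat5-KO_300 and 36.5 in Nfat5-KO_600. Both knockout groups lay below both control groups, and within each genotype the hypertonic value was the higher. Relative to Scr, the knockout had a log2 ratio of -1.00 in isotonic and -0.80 in hypertonic medium. The first lay so near the 2-fold line that it was counted with a pseudocount of 0.01 or with median-of-ratios scaling, but not in the reported setting. The effect of 600 against 300 mosmol/kg was 0.34 in Scr and 0.54 in Nfat5-KO cells, a difference of 0.20 between the genotypes, at percentile 71.5 of the 13414 genes that reached 0.5 FPKM in a group.

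Slc38a2 lies at chr15:96687392-96699730 of GRCm38, 44479 bases from Slc38a1 and 295090 bases from Slc38a4. Slc38a1 (SNAT1, system A) had nearly the same level in every group, with 8.73 FPKM in Scr_300, 8.28 in Scr_600, 9.08 in Nfat5-KO_300 and 8.18 in Nfat5-KO_600. The other genes within 2 Mb of Slc38a2 had a median log2 ratio of Nfat5-KO to Scr of 0.12 (24 genes) at 300 mosmol/kg and 0.03 (25 genes) at 600 mosmol/kg. The median neighbour was thus not lower in the knockout groups. At 600 against 300 mosmol/kg these neighbours had a median log2 ratio of 0.23 in Scr (25 genes) and 0.22 in Nfat5-KO cells (24 genes). That of all genes was -0.04 in both genotypes, so the median neighbour was higher in hypertonic medium, as Slc38a2 was. Their part in the Slc38a2 values was not tested. With Slc38a4 near 0, Slc38a2 made up 85.2% of the summed system A FPKM in Scr_300, 88.5% in Scr_600, 73.4% in Nfat5-KO_300 and 81.7% in Nfat5-KO_600. That sum was 59.0, 71.7, 34.2 and 44.6 FPKM in the same order.

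**Figure D2:**
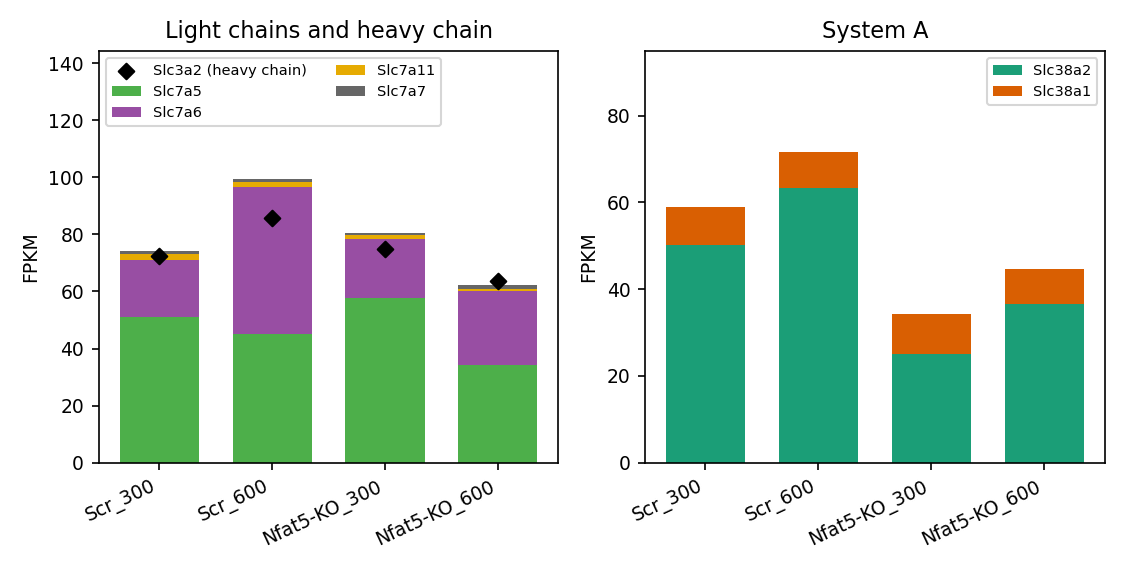
Summed FPKM per group of the light chains Slc7a5, Slc7a6, Slc7a11 and Slc7a7 (stacked bars) with the heavy chain Slc3a2 (diamonds) on the left, and of the system A genes Slc38a2 and Slc38a1 on the right. Slc7a6 takes the larger part of the light chain bar in Scr_600 only (51.7%), and both system A bars of Nfat5-KO cells (34.2 and 44.6 FPKM) are lower than those of Scr cells.

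Slc3a2 encodes 4F2hc (CD98), the heavy chain that brings SLC7 light chains to the plasma membrane. It had the highest level of all members in every group, with 72.5 FPKM in Scr_300, 85.9 in Scr_600, 74.8 in Nfat5-KO_300 and 63.6 in Nfat5-KO_600. The summed FPKM of the 6 light chains known to pair with it (Slc7a5, Slc7a6, Slc7a7, Slc7a8, Slc7a10, Slc7a11) was 1.02 times that of Slc3a2 in Scr_300, 1.16 times in Scr_600, 1.08 times in Nfat5-KO_300 and 0.981 times in Nfat5-KO_600. Light chain and heavy chain mRNA thus lay near parity in all groups.

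The makeup of the light chains was less even. Slc7a5 (LAT1, a leucine and large neutral amino acid exchanger) was at 50.9 FPKM in Scr_300, 45.2 in Scr_600, 57.8 in Nfat5-KO_300 and 34.1 in Nfat5-KO_600. Slc7a6 (y+LAT2, which exchanges cationic for neutral amino acids) was at 20.3 FPKM in Scr_300, 51.5 in Scr_600, 20.5 in Nfat5-KO_300 and 25.9 in Nfat5-KO_600. Slc7a6 was 0.399 times Slc7a5 in Scr_300, 1.14 times in Scr_600, 0.354 times in Nfat5-KO_300 and 0.760 times in Nfat5-KO_600, so that their order turned round in Scr_600 alone.

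The log2 ratio of Slc7a6 at 600 against 300 mosmol/kg was 1.34 in Scr and 0.34 in Nfat5-KO cells. The genotypes differed by -1.00, at percentile 3.14 of all 13414 genes, the widest gap among the 18 expressed members. At 300 mosmol/kg the genotypes had nearly equal levels, with a log2 ratio of 0.01, and at 600 mosmol/kg the ratio was -0.99 (0.503 times the control). Slc7a6 lies at chr8:106168857-106198706, which is 1094764 bases from Nfat5, the gene cut in the knockout clones. The other genes within 2 Mb of Slc7a6 had medians of -0.04 (75 genes) at 300 and -0.11 (78 genes) at 600 mosmol/kg. The part of this region in the Slc7a6 values was not tested. Slc7a6os, on the opposite strand 2011 bases away, was at 9.74 FPKM in Scr_300, 9.81 in Scr_600, 12.0 in Nfat5-KO_300 and 6.67 in Nfat5-KO_600. It was thus level between the Scr groups (log2 ratio 0.01) but lower in Nfat5-KO_600 than in Scr_600 (-0.55) and than in Nfat5-KO_300 (-0.83).

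The other light chains were low. Slc7a11 (xCT, which takes up cystine in exchange for glutamate) was at 2.07 FPKM in Scr_300, 1.63 in Scr_600, 1.44 in Nfat5-KO_300 and 0.994 in Nfat5-KO_600. Both knockout groups were below both controls, with log2 ratios of -0.50 at 300 and -0.66 at 600 mosmol/kg. Slc7a7 (y+LAT1) was at 0.817 FPKM in Scr_300, 1.27 in Scr_600, 0.908 in Nfat5-KO_300 and 1.40 in Nfat5-KO_600, higher in hypertonic medium in both genotypes by log2 ratios of 0.58 and 0.57. Slc3a1 (rBAT, the heavy chain of the cystine transporter) had 0.450 FPKM in Scr_300, 0.789 in Scr_600, 0.429 in Nfat5-KO_300 and 0.944 in Nfat5-KO_600, while its partner Slc7a9 had at most 0.0194 FPKM. Slc3a1 and Slc7a7 each overlap a more abundant gene on the opposite strand, Prepl (12.8 to 15.9 FPKM) and Oxa1l (7.09 to 9.63 FPKM). The strand setting of the counting is not given in the sources used here, so reads of these pairs may not be told apart.

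Among the cationic amino acid transporters, Slc7a1 (CAT-1, the common arginine and lysine carrier) was at 26.5 FPKM in Scr_300, 39.2 in Scr_600, 31.0 in Nfat5-KO_300 and 37.3 in Nfat5-KO_600. It was higher in hypertonic medium in both genotypes, by log2 ratios of 0.56 and 0.27. Slc7a4, a relative of the CAT proteins, was at 0.754 FPKM in Scr_300, 1.40 in Scr_600, 1.000 in Nfat5-KO_300 and 3.09 in Nfat5-KO_600. Its log2 ratio at 600 against 300 mosmol/kg was 0.82 in Scr and 1.54 in Nfat5-KO cells, and Nfat5-KO_600 was above Scr_600 by 1.09. The other genes within 2 Mb of Slc7a4 had a median log2 ratio of Nfat5-KO to Scr of 0.26 (51 genes) at 300 and 0.20 (54 genes) at 600 mosmol/kg, so the median of its neighbourhood was above 0 too. Their part in the Slc7a4 values was not tested.

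Slc1a5 (ASCT2, the glutamine exchanger) was at 10.2 FPKM in Scr_300, 9.96 in Scr_600, 9.41 in Nfat5-KO_300 and 5.44 in Nfat5-KO_600. It stood apart in Nfat5-KO_600 only, with a log2 ratio of -0.86 to Scr_600 and of -0.78 to Nfat5-KO_300. Slc1a4 (ASCT1, an exchanger of alanine, serine and cysteine) was at 6.36, 6.75, 5.78 and 5.15 FPKM in Scr_300, Scr_600, Nfat5-KO_300 and Nfat5-KO_600, and Nfat5-KO_600 was below Scr_600 at a log2 ratio of -0.39.

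The opposite order was seen for Slc43a2 (LAT4, which lets essential neutral amino acids pass by facilitated diffusion). It was at 4.61 FPKM in Scr_300, 4.65 in Scr_600, 5.29 in Nfat5-KO_300 and 8.06 in Nfat5-KO_600. Its log2 ratio of 600 to 300 mosmol/kg was 0.01 in Scr and 0.60 in Nfat5-KO cells, and Nfat5-KO_600 was above Scr_600 by 0.78.

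Of the transporters that act at the lysosome, Slc36a1 (PAT1, proton-coupled) was at 4.09 FPKM in Scr_300, 5.42 in Scr_600, 3.46 in Nfat5-KO_300 and 5.87 in Nfat5-KO_600, higher in hypertonic medium by log2 ratios of 0.40 and 0.75. Slc38a7 (SNAT7, which exports glutamine) was at 3.28 FPKM in Scr_300, 2.88 in Scr_600, 4.23 in Nfat5-KO_300 and 4.26 in Nfat5-KO_600, higher in the knockout by 0.36 at 300 and 0.55 at 600 mosmol/kg. Slc38a9, the lysosomal arginine sensor, stayed between 0.492 and 0.590 FPKM in all groups. It overlaps Gm47827, which reached 0.5 FPKM in a group, on the opposite strand, so reads of this pair may not be told apart either. The less studied Slc38a10 was at 13.9, 17.7, 18.4 and 18.2 FPKM in Scr_300, Scr_600, Nfat5-KO_300 and Nfat5-KO_600, lowest in Scr_300. Slc38a6 lay between 0.884 and 1.16 FPKM.

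Under hypertonic conditions in Scr cells, 1 of 18 members, Slc7a6, was at least 2-fold higher than in isotonic medium, against 4.81% of all 12929 genes compared, and 0 were at least 2-fold lower, against 2.86%. With so few members these shares were near those of all genes. The median log2 ratio of the members was 0.17, against -0.04 for all genes, and 11 of the 18 members were higher (61.1%, against 45.4% of all genes). In Nfat5-KO cells, 1 of 18 members, Slc7a4, was at least 2-fold higher, against 6.25% of 12982 genes, and 0 were at least 2-fold lower, against 4.11%. The member median was 0.07 and that of all genes -0.04.

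These 2 comparisons share no library. Of the 18 members, 8 were higher at 600 mosmol/kg in both genotypes (Slc3a1, Slc7a1, Slc7a4, Slc7a6, Slc7a7, Slc36a1, Slc38a2 and Slc43a2), 5 were lower in both (Slc1a5, Slc7a5, Slc7a11, Slc38a1 and Slc38a6) and 5 differed in direction. The same direction was thus found for 72.2% of the members and for 73.4% of all genes. The effect in Nfat5-KO minus that in Scr cells had a median of -0.08 over the members and -0.01 over all genes. Besides Slc7a6, it was most negative for Slc1a5 (-0.74), Slc7a5 (-0.59) and Slc3a2 (-0.48), and most positive for Slc7a4 (0.72) and Slc43a2 (0.59). The total FPKM of the column was lowest in Nfat5-KO_600 (212247, against 251080.0 in Nfat5-KO_300). When the columns were set to equal totals, the median of all genes moved from -0.04 to 0.20 in Nfat5-KO cells and from -0.04 to 0.09 in Scr cells. With it Slc3a2, Slc1a4, Slc38a1 and Slc38a10 in Nfat5-KO cells turned from lower to higher at 600 mosmol/kg, as did Slc1a5, Slc38a1 and Slc38a9 in Scr cells. Of all genes in Nfat5-KO cells, 812 were at least 2-fold higher and 534 lower in the reported setting, against 1318 and 274 with equal totals. The same split was 622 and 370 in Scr cells, against 756 and 288.

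**Figure D3:**
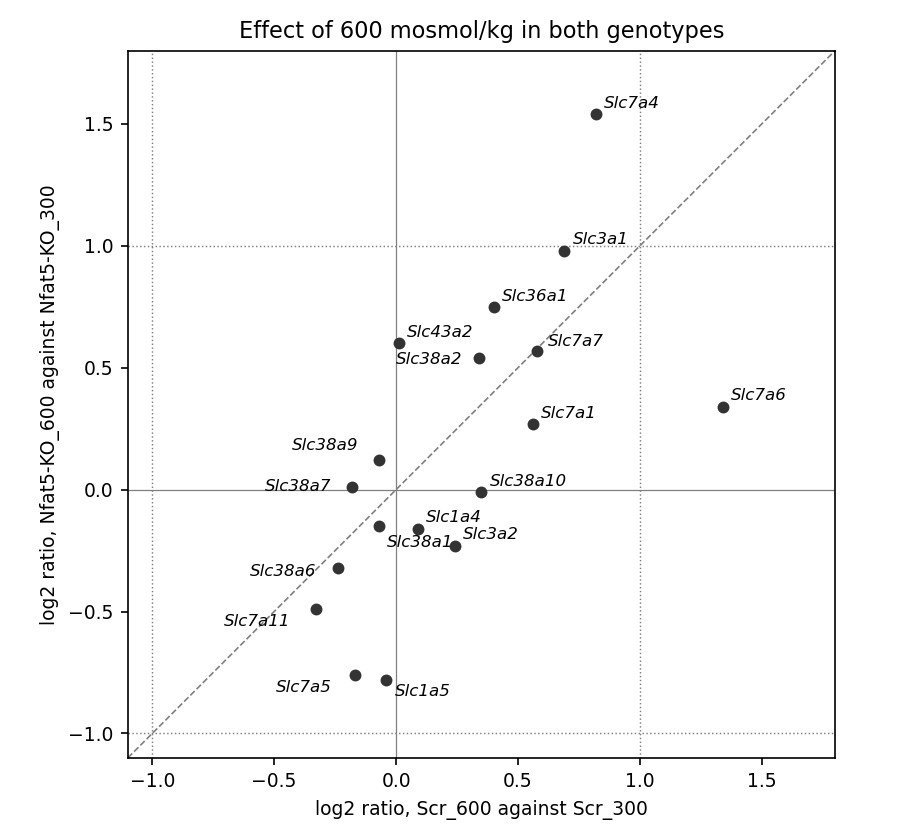
Log2 ratio of 600 to 300 mosmol/kg of the 18 expressed amino acid transporter genes, with Scr cells on the horizontal axis and Nfat5-KO cells on the vertical axis. The dashed line marks equal effects and the dotted lines 2-fold. Slc7a6 lies far to the right of the dashed line (1.34 and 0.34) and Slc7a4 above it (0.82 and 1.54), while Slc38a2 lies near it. With equal column totals, 3 of the small horizontal values and 4 of the vertical ones change sign.

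Under isotonic conditions 17 members were compared between Nfat5-KO and Scr cells. Of these, 0 were at least 2-fold higher (1.73% of 12704 genes) and 0 at least 2-fold lower (2.44% of all genes), with Slc38a2 just short of the line. The median was 0.04 for the members and 0.00 for all genes. Under hypertonic conditions 1 of 18, Slc7a4, was at least 2-fold higher in Nfat5-KO_600 than in Scr_600 (3.76% of 13063 genes), and 0 were at least 2-fold lower (3.68% of all genes), with Slc7a6 just short of the line. The member median was -0.04 and that of all genes -0.02. Over all genes 491 were higher and 481 lower by 2-fold, against 654 and 407 with equal column totals.

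The knockout comparisons at 300 and 600 mosmol/kg share no library either, but both set the same clones against the same control cells. Slc1a4, Slc1a5, Slc7a11, Slc38a2 and Slc38a6 were lower in Nfat5-KO cells at both osmolalities, and Slc7a4, Slc7a7, Slc38a7, Slc38a9, Slc38a10 and Slc43a2 were higher at both. Slc38a6 was no longer lower at 600 mosmol/kg with equal column totals (0.00). This makes the same direction in 61.1% of the 18 members, against 63.8% of all genes. Slc38a2 was the lowest of the members at 300 mosmol/kg, where 2.45% of all genes had a lower ratio. At 600 mosmol/kg Slc7a6, Slc1a5 and Slc38a2 were the lowest, with 3.75%, 4.80% and 5.51% of all genes below them.

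**Figure D4:**
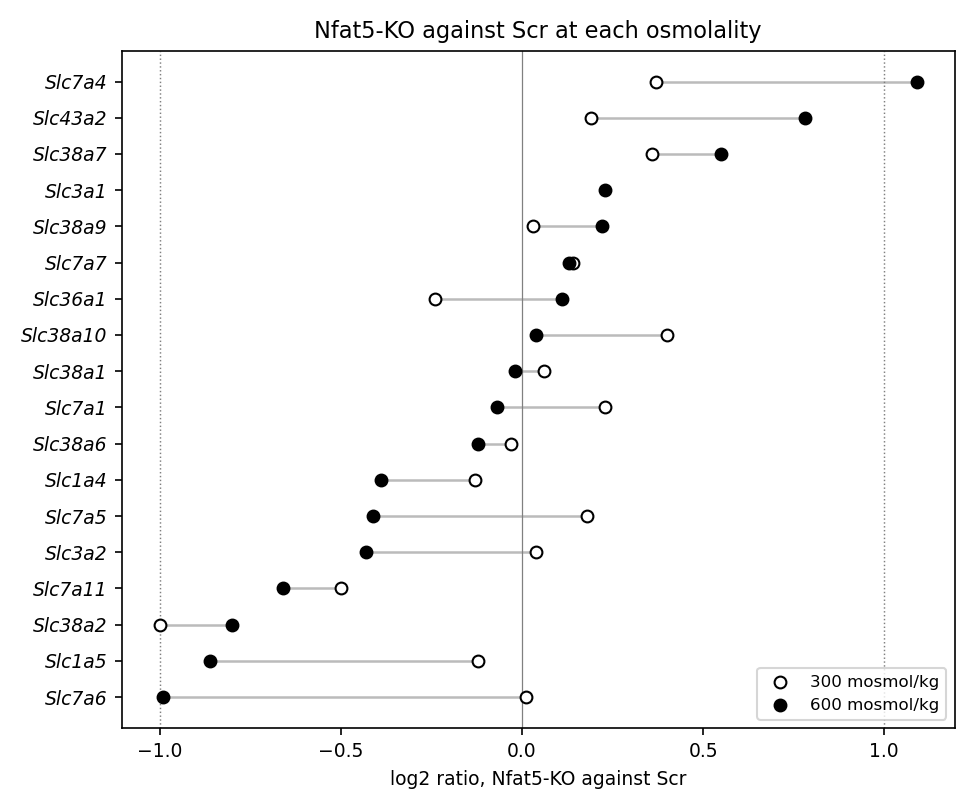
Log2 ratio of Nfat5-KO to Scr for the 18 expressed amino acid transporter genes at 300 mosmol/kg (open points) and at 600 mosmol/kg (filled points), with dotted lines at 2-fold. Slc38a2 is low at both osmolalities (-1.00 and -0.80), whereas Slc7a6 (0.01 and -0.99) and Slc1a5 (-0.12 and -0.86) are low at 600 mosmol/kg. Slc3a1 has no open point, as it was under 0.5 FPKM in both isotonic groups. With equal column totals the filled points of Slc7a1, Slc38a1 and Slc38a6 turn positive, the last at 0.00.

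Other genes of amino acid transport were followed as a list of 24, of which 14 were compared at 600 against 300 mosmol/kg. In Scr cells 1 of 14 was at least 2-fold higher, Slc6a19 (B0AT1, the neutral amino acid transporter of the proximal tubule), which was at 0.411 FPKM in Scr_300, 2.72 in Scr_600, 0.425 in Nfat5-KO_300 and 1.42 in Nfat5-KO_600. In Nfat5-KO cells 2 of 14, Slc6a19 (log2 ratio 1.53) and Slc6a6, were at least 2-fold higher. Of all genes 4.81% and 6.25% were. The 2 of 14 is above the latter, but with so few genes neither count can be told from these shares. Slc6a6 (TauT, the taurine transporter) was at 18.3, 33.7, 12.7 and 33.0 FPKM in Scr_300, Scr_600, Nfat5-KO_300 and Nfat5-KO_600, with log2 ratios of 0.88 in Scr and 1.37 in Nfat5-KO cells. Slc6a9 (GlyT1, a glycine transporter) passed 2-fold in the knockout comparison at 600 mosmol/kg, where it was lower in the knockout, as 1 of 14 (3.68% of all genes). It had 2.73 FPKM in Scr_300, 3.85 in Scr_600, 1.33 in Nfat5-KO_300 and 1.19 in Nfat5-KO_600, so that both knockout groups lay below both controls as for Slc38a2.

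Genes that relay amino acid levels to the kinase mTORC1 were followed as well. Of the 27 compared, 0 were at least 2-fold higher or lower in any of the 4 comparisons, and their medians lay between -0.06 and 0.16. Of all genes 1.73% to 6.25% passed 2-fold in a given direction and comparison, so 0 in 27 is near that share in each taken alone. Over the 4 comparisons together 0 is fewer than these shares would give, but the comparisons share groups.

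Genes of the amino acid response outside the transporters, which are known targets of the kinase GCN2 and of ATF4, were mostly lower in Nfat5-KO cells. Ddit3, whose symbol has 2 rows of different values, was left out. In isotonic medium 20 of the 22 compared were below their Scr level (median -0.43 on the log2 scale, 0.00 for all genes). Of all 12704 genes 6377 were lower. At least 2-fold lower in Nfat5-KO_300 were Trib3 and Nupr1, 2 of the 22 (9.09%), against 2.44% of all genes. In hypertonic medium 18 of the 22 were below their Scr level (median -0.54, -0.02 for all genes), as were 6817 of all 13063 genes. This list was not compared with equal column totals. At least 2-fold lower in Nfat5-KO_600 were 7 of the 22 (31.8%), against 3.68% of all genes: Asns, Chac1, Trib3, Psat1, Pycr1, Ddit4 and Nupr1. Asns (asparagine synthetase) was at 66.3 FPKM in Scr_300, 44.4 in Scr_600, 52.6 in Nfat5-KO_300 and 19.5 in Nfat5-KO_600, and Psat1 (serine synthesis) was at 110.0, 139, 73.4 and 42.4 FPKM in the same order. Nupr1 had the widest gap, with 58.2 FPKM in Scr_600 and 2.73 in Nfat5-KO_600. Atf4 itself was at 161 FPKM in Scr_300, 191 in Scr_600, 140.0 in Nfat5-KO_300 and 129 in Nfat5-KO_600.

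Of the transporters, Slc1a4, Slc1a5, Slc3a2, Slc7a1, Slc7a5, Slc7a11 and Slc38a2 are widely described as ATF4 targets. They were put together after their values were seen. At 600 mosmol/kg all 7 had a lower level in the knockout, by log2 ratios from -0.86 to -0.07 (median -0.43), and 6 of the 7 were lower when the columns were set to equal totals, where Slc7a1 turned to 0.06. Of the other 11 members 3 were lower, and 1 with equal totals. Of all genes, 6817 of 13063 were lower in the reported setting, and their median moved from -0.02 to 0.11 with equal totals. At 300 mosmol/kg, 4 of the 7 had a ratio below 0, and the median was -0.12. Of all genes 6377 of 12704 were below 0 there.

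**Figure D5:**
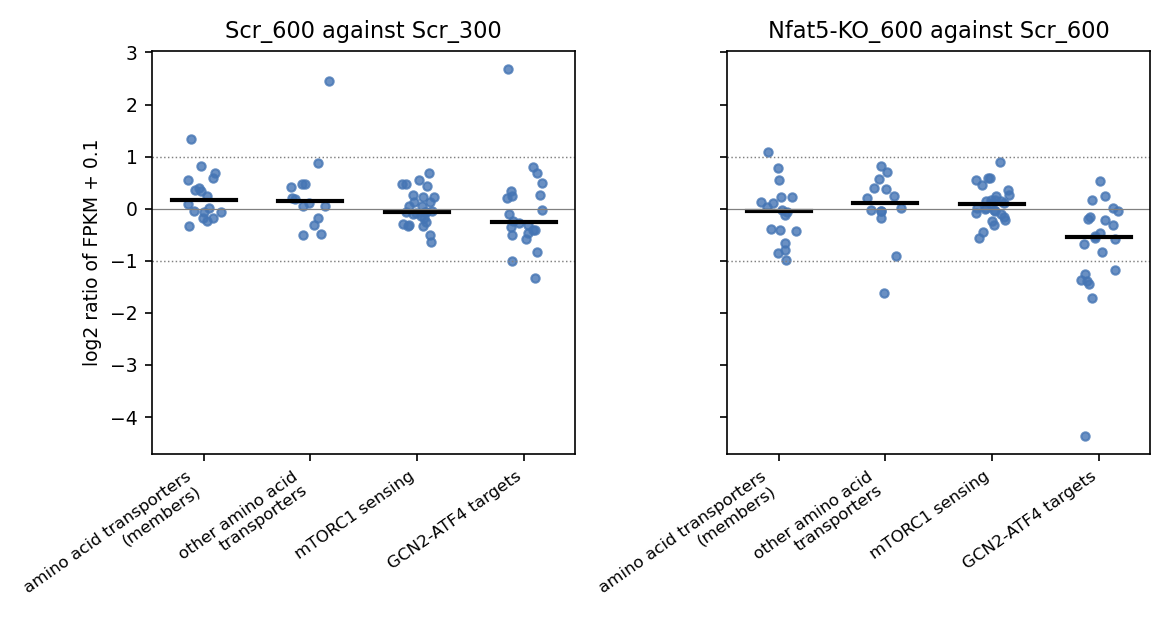
Log2 ratios of Scr_600 to Scr_300 (left) and of Nfat5-KO_600 to Scr_600 (right) for the amino acid transporters and for 3 other lists, with 1 point per gene with a ratio, a bar at the median and dotted lines at 2-fold. The GCN2-ATF4 targets have the lowest median on the right (-0.54), and the mTORC1 genes all stay within the dotted lines.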

How the data were processed

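RNA-seq was performed on 12 libraries from mpkCCD cells. After read filtering, the authors aligned paired-end reads to GRCm38/mm10 (HISAT2), obtained gene counts (HTSeq) and derived the deposited FPKM values from them. Versions, annotation release, strand setting and the way in which libraries of a group were combined are not given in the sources used here. The table gives 1 value per gene for each of 4 groups, so the limma fits that were planned for values per library could not be run.

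The table has 54839 rows. Rows without a value (2436), repeated rows (311) and 37 symbols found on rows that differ were not used, and 52015 genes remained. No member was affected. Log2 ratios of FPKM + 0.1 were taken over genes with at least 0.5 FPKM in either group, and for single genes where both groups had at least 0.1 FPKM. Steps were tested on simulated data. All members are accounted for, and those with at least 0.5 FPKM are given with their values. From the other lists only some of the genes at least 2-fold changed are named. A few genes were singled out after their values were seen (Atf4, Gata3, Aqp1, Lrp2, Cd68, Slc7a6os, Prepl, Oxa1l, Gm47827). Members and lists were chosen with earlier results of these data known. Positions are from GENCODE M21 (GRCm38). Alternatives were a pseudocount of 1 or 0.01, all genes without filter, genes with a 4-group mean of 1 FPKM or more, median-of-ratios factors, the median of role medians and, chosen after seeing the data, equal column totals. Of the listed symbols, Slc66a1, Castor1, Castor2 and Samtor were not matched. The work was done in Python 3.11.15 (pandas 2.3.3, numpy 2.4.6, matplotlib 3.10.9).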

Additional observations from a re-analysis of the deposited data

How the results depend on the processing

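No paired analysis was possible because the deposited columns hold whole groups and carry no replicate numbers; for the same reason no library could be left out. With 1 value per group and unknown depth, low members such as Slc3a1, Slc7a4 and Slc38a9 carry no error. The counts of members at least 2-fold changed are small, and 1 gene near the line moves them. In Scr_600 against Scr_300, 2 members were higher without a filter (Slc1a3 added) and the median was 0.00, and it was 0.29 with equal column totals. In Nfat5-KO_600 against Nfat5-KO_300, 2 were higher with equal column totals, with no filter and at a pseudocount of 0.01, and the median was 0.29 with equal totals and 0.28 as the median of role medians. In Nfat5-KO_300 against Scr_300, 1 was lower (Slc38a2) with a pseudocount of 0.01 and with median-of-ratios factors. In Nfat5-KO_600 against Scr_600, 0 were higher with a pseudocount of 1, 1 was lower without a filter (Slc1a3) and with median-of-ratios factors (Slc7a6), and the median was 0.08 with equal totals. The cause was not tested. Over all genes of that comparison, 135 were at least 2-fold higher and 203 lower with a pseudocount of 1. Unfiltered, these were 1086 and 798. Of 71 log2 ratios of single members, 0 changed sign with another pseudocount or filter, 2 did with median-of-ratios factors (sizes up to 0.04) and 10 with equal totals (sizes up to 0.23).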
